A study of Mus musculus with 45 samples.

Results

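Aged oocytes that had been cultured inside aged somatic cells (AA) were compared with young oocytes cultured inside young somatic cells (YY). In a reconstituted chimeric follicle (RCF), a mouse follicle loses its own oocyte, receives the oocyte of another follicle and is then kept in culture. The comparison took every library whose title named it AA (n = 12) or YY (n = 11), which made 23 of the 45 single-oocyte RNA libraries of the series. Both groups carried the transplantation and the culture. Oocyte age and somatic cell age changed together between them, so their parts in a difference cannot be told apart here. Strain, age in weeks, the animals behind each oocyte and the meiotic stage at collection are not given in the sources used here. Each oocyte is labelled as a biological replicate with no word on its animal, and the p-values therefore cover the spread among oocytes, which may share an animal.

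A fully grown mouse oocyte is nearly silent in transcription and lives on stored maternal mRNAs, which it keeps short-tailed and dormant, translates on cue and later destroys. It exchanges metabolites with the granulosa cells around it through gap junctions and steers them with secreted factors of the GDF9 and BMP15 kind. With maternal age, oocytes are known for errors in chromosome segregation and for changes in their stored RNA, chromatin and mitochondria. Levels are given in CPM, the count of a gene scaled to a common library total, which are relative: a higher CPM means a larger share of the oocyte's counted RNA, and the total RNA of an oocyte was not measured.

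The libraries held 503354 to 1335807 total counts in AA and 462476 to 1023332 in YY. Defining oocyte transcripts were abundant in each of them, with Gdf9 at a median of 5404 CPM in AA and 5354 CPM in YY and Zp3 at 2915 and 2937 CPM (unscaled CPM). The AA libraries were numbered S268 to S279, whereas YY fell into 2 numbering series, S225 to S231 (n = 6) and S198 to S202 (n = 5). What the numbers stand for is not given. Since no AA library shares a series with YY, series and group cannot be told apart. The YY series also differed from each other, with 999 of 7854 genes called between them (12.7%), or 572, 637 and 612 without YY replicate 3, 5 or 10. Results are therefore also given against each series.

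Of 8533 genes tested, 1090 were higher in AA (12.8%) and 1258 lower (14.7%), which together is 27.5% of the genes, by the quasi-likelihood test of edgeR (Benjamini-Hochberg adjusted p under 0.05). Most changes were small. The called genes had a median size of 0.62 on the log2 scale, and a change of at least 2-fold was reached by 63 higher and 286 lower genes. Protein-coding genes had 995 members higher and 1203 lower of 7531, while among 550 processed pseudogenes 46 were higher and 23 lower. Against YY S225 to S231 alone, 1547 genes were higher (18.7%) and 1604 lower (19.4%), and against S198 to S202 alone 189 were higher (2.27%) and 262 lower (3.15%). By an all-or-nothing pattern of 11 genes, the AA libraries fell into 2 patterns (9 and 3 libraries) and the YY libraries into 4. AA and YY had no pattern in common, which Gm17830 alone fixed. This gene of the 11 was present in 0 AA and in 11 YY libraries. Treating libraries with the same pattern as a random block left 579 higher (6.79%) and 502 lower (5.88%). Summing the libraries of each pattern set 2 AA sums against 4 YY sums. It left 2 called genes, Thg1l and Gm17830 (itself one of the 11 genes that made the patterns), with 1465 at an unadjusted p under 0.05.

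**Figure D1:**
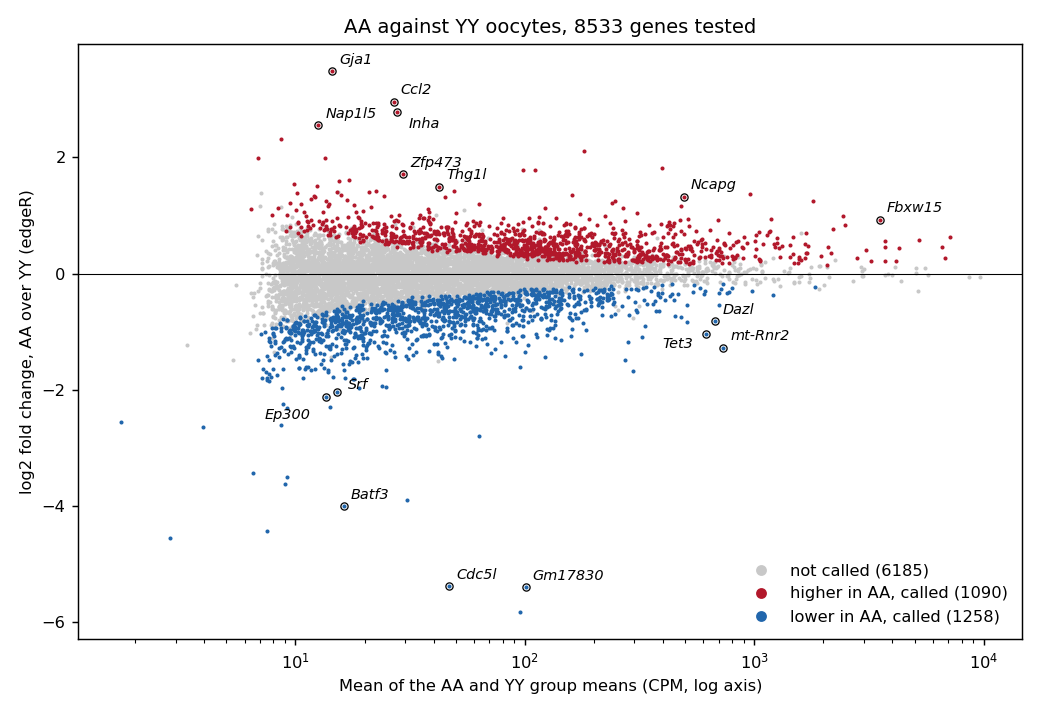
Change of every tested gene against its level. The horizontal axis is the mean of the AA and YY group means in CPM on a log axis, and the vertical axis is the log2 fold change of AA over YY from edgeR. Each point is a gene. Red points (1090) were called higher in AA and blue points (1258) lower, and the circled genes are described in the text. The lower side of the plot reaches farther from 0 than the upper side.

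For a small number of genes the groups did not overlap at all. In 30 genes every AA library was above every YY library (0.352% of those tested), and in 23 every AA library was below every YY library (0.27%). The 30 included Ncapg, Thg1l, Nfya, Ldhb, Dnm1l, Cul1, Cct5, Cct8, Ccnb2, Sgo2a and 5 Fbxw genes. The 23 included Dazl, Tet3, Baz2a, Tiam1, Wasf2, Sf3a2, Batf3, Tnrc6b, Cnot3 and Taf7. Genes of this kind outside the naming rule, Dnm1l, Cul1, Cct5, Ccnb2, Sgo2a, Tnrc6b, Cnot3 and Taf7, were named after their values were seen.

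Ncapg encodes a subunit of condensin I, the ring complex that compacts chromosomes for division. It measured 637 to 824 CPM (median 668) in AA oocytes, against 131 to 385 CPM (median 296) in YY oocytes. The lowest AA oocyte lay far above the highest YY oocyte. The log2 change was 1.33 ± 0.12 (SE, adjusted p = 3.75e-10, edgeR), and it was 1.05 against S198 to S202 and 1.59 against S225 to S231. Ncapg lies on chromosome 5 (45827261 to 45857888, mm39). Its partner Ncaph rose by 0.36 ± 0.10, and no other of the 7 tested condensin genes was called, with a list median of 0.11 beside -0.01 over all genes. Only 1 condensin gene was called higher against S198 to S202, and only 1 with the pattern as a random block. With an offset for GC content and length 1 was higher and 1 lower. AY oocytes, aged oocytes in young somatic cells, stood at 425 ± 46.9 CPM for Ncapg (SD, n = 6).

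Cohesin, which holds sister chromatids together, moved little. Among 13 tested cohesin and loader genes (list median -0.09), 2 fell (15.4%) and 1 rose (7.69%), beside 14.7% and 12.8% of all genes. Rad21, the mitotic kleisin, changed by -0.47 ± 0.16, lost its call without YY replicate 10 (adjusted p = 0.0625, edgeR) and was at -0.01 against S198 to S202. Shugoshin 2 (Sgo2a), which shields centromeric cohesin, was at 56.3 to 97.2 CPM (median 68.9) in AA oocytes, against 31.3 to 53.4 CPM (median 46.7) in YY oocytes. All AA oocytes lay above all YY oocytes. Sgo2a rose by 0.70 ± 0.12 (adjusted p = 2.49e-05, edgeR).

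Chromatin remodellers, the ATP-driven machines that slide and evict nucleosomes, were lower as a list. Of 28 tested genes 15 fell and 1 rose, with a median of -0.39, where 14.7% of all genes fell. Baz2a, the large subunit of the nucleolar remodelling complex NoRC, was at 24.7 to 57.8 CPM (median 42.1) in AA oocytes, against 68.1 to 134 CPM (median 100.2) in YY oocytes, without overlap, and changed by -1.21 ± 0.14 (adjusted p = 2.55e-08, edgeR). Arid1a, the defining subunit of the BAF complex, was at 99.8 to 203 CPM (median 126) in AA oocytes, against 153 to 309 CPM (median 219) in YY oocytes with the groups overlapping, and changed by -0.66 ± 0.11. All 6 tested CHD remodellers had values below 0 and 5 of them fell, from -0.45 ± 0.12 for Chd6 to -1.15 ± 0.32 for Chd1. The 1 member called higher was Hells, a helicase needed for DNA methylation, at 0.31 ± 0.09. The CHD genes were taken as a group after their values were seen, and 1 of them was called against S198 to S202, 2 with the pattern block and 3 with the offset for GC content and length. Against S198 to S202 alone, 5 of the list fell, among them Baz2a (-0.96), Chd7 (-0.57), Bptf (-0.46) and Arid1a (-0.45). Under the pattern block 5 fell and none rose. After the correction for GC content and length 7 fell and 2 rose, and Arid1a lost its call (adjusted p = 0.0558, edgeR).

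Writers and readers of histone acetylation were lower in part. Of 20 tested genes 6 fell (30%) and 1 rose (5%), beside 14.7% and 12.8% of all genes, and the list median was -0.28. Ep300, the acetyltransferase p300, measured 1.26 to 11 CPM (median 4.67) in AA oocytes, against 7.87 to 34.9 CPM (median 24) in YY oocytes, and 1 AA oocyte lay within the YY range. Its log2 change was -2.12 ± 0.30 (adjusted p = 2.03e-06, edgeR). The Sin3 scaffold of deacetylase complexes, Sin3a, was at 144 to 205 CPM (median 171) in AA oocytes, against 192 to 282 CPM (median 248) in YY oocytes and changed by -0.54 ± 0.08, with the same value of -0.54 against S198 to S202. Hat1, which acetylates newly made histone H4, rose by 0.57 ± 0.14. Against S198 to S202, 0 genes of the list were higher and 3 lower, so Hat1 was not called there. With the pattern as a random block 1 was higher and 3 lower. With the offset for GC content and length 2 were higher and 4 lower. Tet3, which oxidises methylated cytosine in the egg, was at 332 to 491 CPM (median 410.3) in AA oocytes, against 537 to 1268 CPM (median 814) in YY oocytes. No AA oocyte reached the lowest YY oocyte. The change of -1.04 ± 0.12 was -0.64 against S198 to S202 (adjusted p = 8.13e-05, edgeR).

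Of 59 tested genes of DNA repair 14 rose (23.7%, beside 12.8% of all genes) and 4 fell, with a median of 0.17. Msh3, a mismatch repair protein that recognises small loops in mispaired DNA, had 100.005 to 219 CPM (median 172) in AA oocytes, against 67.7 to 147 CPM (median 84.1) in YY oocytes. The ranges overlapped, while all 12 AA oocytes lay above the YY median. Msh3 rose by 0.82 ± 0.12 and by 0.84 against S198 to S202. Msh4 (0.91 ± 0.18), which acts in meiotic crossing over, and the mismatch repair gene Pms1 (0.67 ± 0.13) also rose, and Msh4 was named after its values were seen. Of the members that fell, Rpa3, the small subunit of the single-strand binding protein RPA, changed by -0.61 ± 0.12 while the large subunit Rpa1 rose by 0.69 ± 0.21. With S198 to S202 as the YY set the list had 2 genes higher (beside 2.27% of all genes) and 1 lower, and Msh3 was called.

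The general machinery of transcription had called genes in both directions. Of 54 tested genes of Mediator, Integrator and elongation 11 rose (20.4%) and 15 fell (27.8%), with a median of -0.08. Of all genes 12.8% rose and 14.7% fell. Ice1, a scaffold of the little elongation complex, was at 49.8 to 136 CPM (median 88.8) in AA oocytes, against 130.2 to 280.2 CPM (median 193) in YY oocytes. Only the upper end of AA reached the lower end of YY, and the change was -1.14 ± 0.13 (adjusted p = 9.11e-08, edgeR). Supt6, an elongation factor and histone chaperone, changed by -0.88 ± 0.14. Mediator genes were found on both sides, with Med28 higher at 0.48 ± 0.07 and Med15 (-0.76 ± 0.15), Med13 (-0.91 ± 0.18) and Med26 (-1.0 ± 0.17) lower. Integrator, which trims the ends of small nuclear RNAs, had Ints4 (0.86 ± 0.16), Ints9 (0.69 ± 0.18), Ints10 (0.65 ± 0.16) and Ints11 (0.54 ± 0.18) higher and Ints6 (-0.79 ± 0.19) and Ints8 (-0.79 ± 0.24) lower. Taken against S198 to S202, Med28 was the 1 higher gene and Ice1, Supt6, Med15 and Supt5 were lower. The genes of this list other than Ice1, Supt6, Med28 and Ints4 were named after their values were seen.

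Transcription factors of the oocyte and early embryo had 13 of 34 tested members lower (38.2%, beside 14.7% of all genes) and 3 higher, with a median of -0.27. When the pattern was a random block 3 were lower and 3 higher. Nfya, the sequence-specific subunit of the CCAAT-binding factor NF-Y, stood against the list. It measured 520.3 to 956 CPM (median 648) in AA oocytes, against 230.1 to 516 CPM (median 334) in YY oocytes, with the lowest AA oocyte level with the highest YY oocyte and no overlap. Nfya rose by 0.95 ± 0.11 (adjusted p = 1.99e-07, edgeR), and by 0.98 and 0.91 against the S198 and S225 series. Its partner Nfyb changed by -0.46 ± 0.15. Lower were Gata4 (-1.63 ± 0.34), the octamer factor Pou5f1 (-0.86 ± 0.26), Sp3 (-1.12 ± 0.33) and the forkhead factors Foxo1 (-0.53 ± 0.12) and Foxo3 (-0.51 ± 0.14), the last of which guards dormant follicles. Nfyb, Pou5f1, Sp3 and Foxo3 were named after their values were seen. In the S198 to S202 comparison Nfya was higher and Jarid2 (-0.64) lower, and Foxo1 was at -0.19 (adjusted p = 0.466, edgeR).

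**Figure D2:**
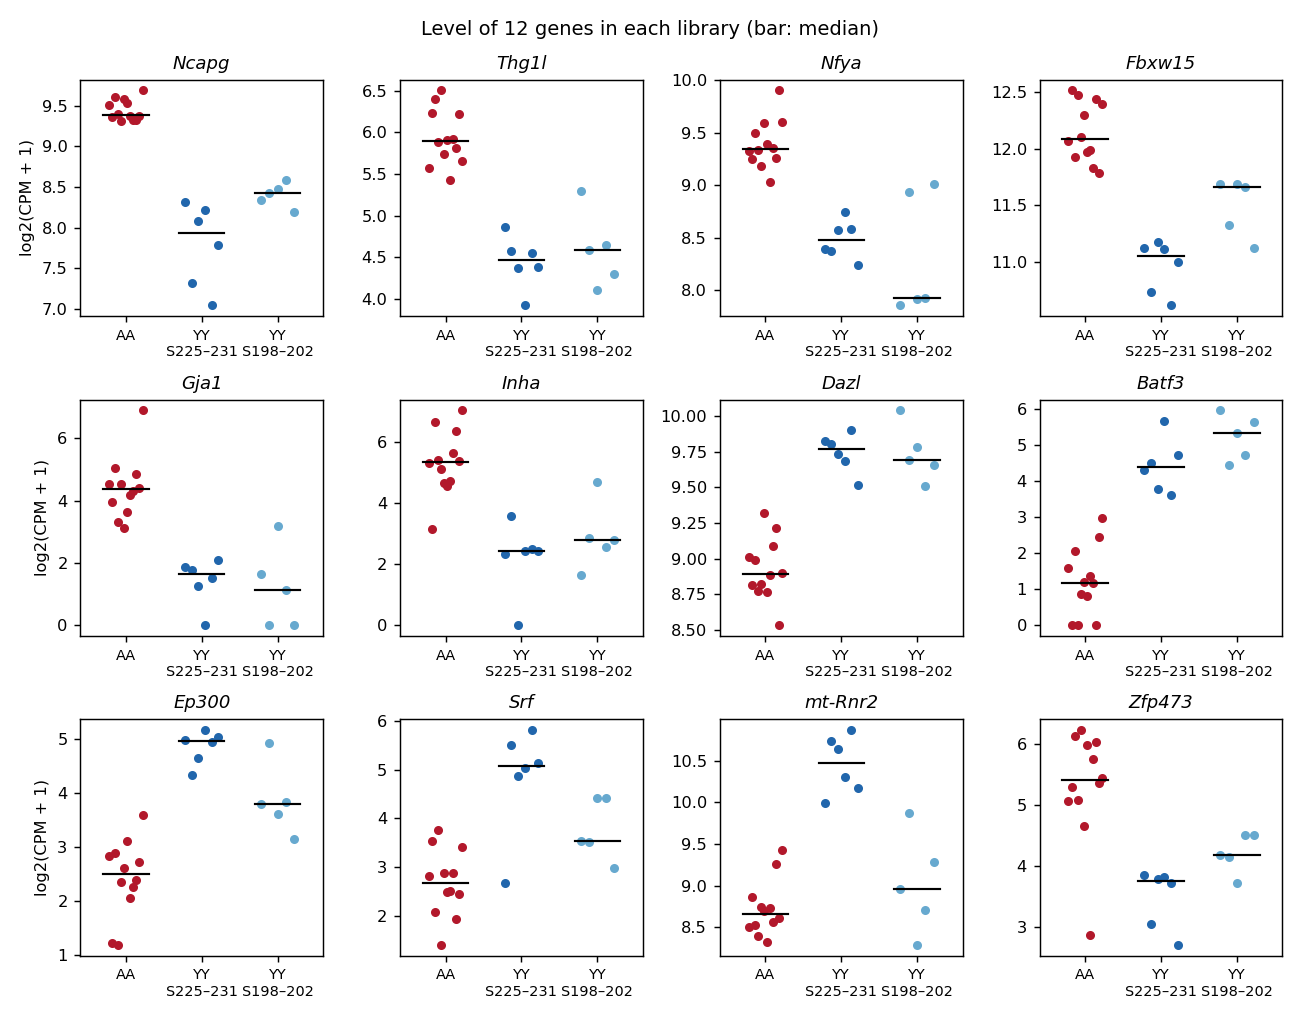
Level of 12 genes in every library, as log2(CPM + 1), in AA oocytes (red, 12 libraries), YY S225 to S231 (dark blue, 6) and YY S198 to S202 (light blue, 5). Each point is an oocyte, the bar is the median, and the horizontal spread of points within a group has no meaning. Ncapg, Thg1l, Fbxw15 and Dazl separate AA from both YY series, whereas mt-Rnr2 of AA lies among YY S198 to S202 and below YY S225 to S231.

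Splicing genes showed a few large decreases in a list that was otherwise near 0. Of 52 tested genes 9 fell (17.3%) and 5 rose (9.62%), near the 14.7% and 12.8% of all genes, and the list median was -0.05. Sf3a2, a core protein of the U2 particle that marks the branch point, was at 1.64 to 16.1 CPM (median 7.36) in AA oocytes, against 19.3 to 48 CPM (median 23) in YY oocytes. The groups did not overlap, and the change was -1.97 ± 0.26 (adjusted p = 5.92e-07, edgeR). Cdc5l, a scaffold of the Prp19 complex, measured 0 to 9.87 CPM (median 1.47) in AA oocytes, against 1.87 to 227 CPM (median 65.4) in YY oocytes. Its level within YY spanned from near 0 to the highest oocyte, and the lowest YY oocytes lay within the AA range. The change was -5.38 ± 0.79, it was -6.31 against S198 to S202, and it lost its call with the pattern as a random block (adjusted p = 0.251, limma voom). Plrg1, another member of the Prp19 complex, rose by 0.56 ± 0.09.

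Regulators of stored mRNA were among the lists with the most lower genes. Of 62 tested genes of mRNA decay and translational control 24 fell (38.7%) and 7 rose (11.3%), with a median of -0.32. Of all genes 14.7% fell and 12.8% rose. Dazl, an RNA-binding protein that promotes translation of germ cell mRNAs, measured 369 to 639 CPM (median 474) in AA oocytes, against 728 to 1052 CPM (median 852) in YY oocytes. The groups were fully apart, with a change of -0.81 ± 0.09 (adjusted p = 2.07e-08, edgeR) that was -0.81 against S198 to S202 and -0.82 against S225 to S231. Igf2bp2, a binder of methylated maternal mRNA, was at 255 to 359 CPM (median 296) in AA oocytes, against 340.2 to 554 CPM (median 403) in YY oocytes and changed by -0.52 ± 0.08. Cytoplasmic polyadenylation showed both directions: Cpeb1, which awakens dormant mRNAs in meiosis, had 927 to 2148 CPM (median 1448) in AA oocytes, against 641 to 1434 CPM (median 940.2) in YY oocytes and rose by 0.53 ± 0.13, while Cpeb3 (-0.73 ± 0.16) and Cpeb4 (-1.02 ± 0.18) fell. The CCR4-NOT deadenylase complex and its adaptors had 5 of 14 lower, Cnot3 (-0.88 ± 0.14), Cnot6l (-0.90 ± 0.14), Cnot11 (-0.76 ± 0.17), Tob1 (-0.96 ± 0.29) and Tob2 (-0.72 ± 0.13), and 3 higher, Cnot8 (0.51 ± 0.16), Cnot9 (0.43 ± 0.11) and Cnot10 (0.48 ± 0.16).

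The decapping enzyme Dcp2 changed by -0.60 ± 0.11 and the cold-shock proteins that package maternal mRNA, Ybx1 and Ybx2, by -1.45 ± 0.23 and -0.93 ± 0.17. Patl2, an RNA-binding protein that oocytes need to mature, rose by 0.58 ± 0.13. Set against S198 to S202, 6 of the 62 fell and none rose: Dazl, Cnot3 (-0.75), Cnot6l (-0.49), Cpeb4 (-0.82), Dcp2 (-0.47) and Igf2bp2 (-0.33). Ybx2 was at -0.23 in that comparison. With the pattern as a random block 19 of the list were lower and 5 higher. Apart from Dazl, Igf2bp2, Cpeb1 and Patl2, the genes of this list were named after their values were seen.

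Aminoacyl-tRNA synthetases, which load tRNAs with their amino acids, rose in a larger share of tested genes than any other of the 25 lists. Of 28 tested genes 14 rose and 1 fell, with a median of 0.39, where 12.8% of all genes rose. Iars, the isoleucyl enzyme, had 261 to 501 CPM (median 343) in AA oocytes, against 98.1 to 283 CPM (median 173) in YY oocytes. The top of YY overlapped the bottom of AA, and Iars rose by 1.13 ± 0.15 (adjusted p = 2.08e-06, edgeR). Eprs, which loads glutamate and proline, was at 149.7 to 253 CPM (median 201.1) in AA oocytes, against 69.3 to 164.6 CPM (median 100.1) in YY oocytes and rose by 0.88 ± 0.13. Of the 18 cytosolic enzymes 11 rose, among them Lars (0.88 ± 0.20), Qars (0.71 ± 0.13), Gars (0.60 ± 0.14) and Kars (0.56 ± 0.11), and of the 7 mitochondrial ones 2 rose. The 1 member that fell was Farsa at -0.32 ± 0.12 (adjusted p = 0.0477, edgeR), although Farsb, the other subunit of the same phenylalanyl enzyme, rose by 0.50 ± 0.12. Farsa lost its call when any 1 of YY replicates 2, 5, 6, 7, 9 and 10 or of AA replicates 1 to 6, 9 and 10 was left out (adjusted p up to 0.0881, edgeR). In the comparison with S198 to S202, Iars (0.79), Eprs (0.59) and Nars (0.41) were called. The split into cytosolic and mitochondrial enzymes, and the genes other than Iars, Eprs and Farsa, were chosen after their values were seen.

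Enzymes that process and modify tRNA had 8 of 41 tested genes higher (19.5%, beside 12.8% of all genes) and none lower (median 0.13), and against S198 to S202 only Thg1l was called. Thg1l, which adds the guanosine that marks histidine tRNA, measured 42.2 to 89.6 CPM (median 58.5) in AA oocytes, against 14.2 to 38.3 CPM (median 22.4) in YY oocytes. Each AA oocyte was above each YY oocyte. Thg1l rose by 1.5 ± 0.16 (adjusted p = 6.28e-09, edgeR), and by 1.43 and 1.55 against the S198 and S225 series. AY oocytes held 22.6 ± 2.57 CPM (SD, n = 6). Thg1l lies on chromosome 11 (45837670 to 45846321, mm39). Elp2, a subunit of Elongator, which modifies the wobble base of tRNAs, rose by 0.68 ± 0.13 and was not called against S198 to S202.

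Translation factors changed in both directions. Of 51 tested genes 13 rose (25.5%) and 8 fell (15.7%), beside 12.8% and 14.7% of all genes, and the list median was 0.06. Eif4e, the cap-binding protein, measured 552 to 680.1 CPM (median 602) in AA oocytes, against 428 to 557 CPM (median 484) in YY oocytes, with AA and YY touching at the edge, and rose by 0.32 ± 0.06 (adjusted p = 0.000265, edgeR). Of 4 tested subunits of eIF2B, the exchange factor that recharges initiation factor 2, 3 rose, none of them called against S198 to S202, with the largest value in Eif2b3 (0.53 ± 0.10). Lower were the scaffolds Eif4g1 (-1.04 ± 0.30) and Eif4g3 (-0.57 ± 0.12), the helicase partner Eif4h (-0.61 ± 0.15), the elongation factor Eef2 (-0.61 ± 0.16) and its kinase Eef2k (-0.64 ± 0.15). Eif4g3 (-0.61) and Eif4e (0.30) kept their calls against S198 to S202. Eif4g1, Eef2 and Eef2k were named after their values were seen.

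Ribosomal protein genes were seldom called. Of 58 tested cytosolic ribosomal protein genes 3 rose and 3 fell (median -0.07), and of 72 mitochondrial ones 3 rose and 3 fell (median -0.03), both under the background shares. The median of the cytosolic genes was -0.23 against S225 to S231 and 0.13 against S198 to S202, of opposite sign. Ribosomal protein genes have many processed copies, so their counts are uncertain. The 2 mitochondrial ribosomal RNAs were lower in AA. mt-Rnr2 was at 319 to 689.5 CPM (median 402) in AA oocytes, against 311 to 1871 CPM (median 1020.0) in YY oocytes, and mt-Rnr1 at 111 to 185 CPM (median 139.8) in AA oocytes, against 143 to 772 CPM (median 447) in YY oocytes. Both overlapped, and the overlap came from the low end of YY: mt-Rnr2 changed by -1.27 ± 0.25 against all of YY, by -1.75 against S225 to S231 and by -0.36 against S198 to S202 (adjusted p = 0.408, edgeR). The share of all counts from the mitochondrial genome had a median of 0.118% in AA, 0.392% in YY S225 to S231 and 0.106% in YY S198 to S202.

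Cullin-RING ubiquitin ligases, which tag proteins for destruction, had 24 of 49 tested genes higher (49.0%) and 4 lower (8.16%), with a median of 0.21. Of all genes 12.8% rose and 14.7% fell. Cullin ligases were the list with the most called genes against S198 to S202 alone, 13 higher and 1 lower. Much of it came from a single family. The mouse genome carries a cluster of Fbxw genes on chromosome 9 (108968515 to 109619738, mm39) that code for F-box proteins, the substrate receptors of such ligases, and are transcribed in oocytes. Of its genes 15 were tested (Fbxw23 is annotated as a pseudogene), and all 15 rose, by 0.33 to 0.93 with a median of 0.67. Summed over the 15 genes, AA oocytes held 22978 to 31994 CPM (median 27932), against 11117 to 22712 CPM (median 16256) in YY oocytes. That is a median of 2.79% of all counts in AA and 1.63% in YY. No YY oocyte of either series reached the lowest AA oocyte, although the highest of S198 to S202, at 22712 CPM, came close. AY oocytes stood between 17848 and 25181 CPM, uncultured young oocytes between 21275 and 29342 CPM and cultured young oocytes between 17609 and 29329 CPM, so YY S225 to S231 (11117 to 16256 CPM) was the lowest of these sets.

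Promoter regions of several of these genes share stretches of sequence. The RefSeq table (build GRCm38.p6) had an entry for 12 of the 15 genes. The 250 bases before the start of the 4 genes that had an entry and showed no overlap between AA and YY are shown here, read 5′ to 3′ on the minus strand, with capitals for the longest run of bases that all 4 share. They lie at chr9:109568263-109568512 (Fbxw15), chr9:109339660-109339909 (Fbxw28), chr9:109702701-109702950 (Fbxw18) and chr9:109234755-109235004 (Fbxw20).
Fbxw15: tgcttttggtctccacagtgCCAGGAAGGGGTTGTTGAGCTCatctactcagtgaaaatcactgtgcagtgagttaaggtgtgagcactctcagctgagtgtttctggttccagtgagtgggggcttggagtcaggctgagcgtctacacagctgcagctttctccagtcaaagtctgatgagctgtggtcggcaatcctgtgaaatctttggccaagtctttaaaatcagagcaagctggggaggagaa
Fbxw28: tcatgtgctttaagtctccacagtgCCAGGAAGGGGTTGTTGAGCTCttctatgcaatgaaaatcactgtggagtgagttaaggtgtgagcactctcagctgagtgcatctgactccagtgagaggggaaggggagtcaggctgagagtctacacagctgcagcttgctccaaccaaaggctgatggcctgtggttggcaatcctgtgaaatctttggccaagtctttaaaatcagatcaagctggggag
Fbxw18: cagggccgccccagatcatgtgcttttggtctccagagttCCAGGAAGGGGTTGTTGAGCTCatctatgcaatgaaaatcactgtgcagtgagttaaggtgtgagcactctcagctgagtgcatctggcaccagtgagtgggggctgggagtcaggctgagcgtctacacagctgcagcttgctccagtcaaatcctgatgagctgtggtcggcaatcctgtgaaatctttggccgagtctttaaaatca
Fbxw20: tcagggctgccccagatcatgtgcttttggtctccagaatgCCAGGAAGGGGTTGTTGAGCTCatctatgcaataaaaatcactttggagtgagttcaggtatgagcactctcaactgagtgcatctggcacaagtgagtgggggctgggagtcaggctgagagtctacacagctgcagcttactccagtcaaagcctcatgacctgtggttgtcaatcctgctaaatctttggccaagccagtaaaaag
The shared run has 22 bases and was present in 8 of the 12 promoters of the cluster and in no other of the 27025 promoters of the table, while the longest run common to all 12 has 5 bases. The E-box CAGCTG, which reads the same on both strands, stands in 11 of the 12 promoters. It stands in 12.3% of the 6285 promoters of tested genes that had an entry. In the 4 shown it lies within cacagctgcagctt, and in Fbxw15, Fbxw28 and Fbxw18 also within ctctcagctgagtg. The 12 promoters belong to a family of related copies, so they do not count as independent promoters. A match of letters is a description and not a bound site.

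Fbxw15 measured 3528 to 5856 CPM (median 4354) in AA oocytes, against 1564 to 3301 CPM (median 2231) in YY oocytes, Fbxw28 2392 to 3132 CPM (median 2772) in AA oocytes, against 979 to 2288 CPM (median 1648) in YY oocytes and Fbxw18 2769 to 3727 CPM (median 3129) in AA oocytes, against 1021 to 2598 CPM (median 1860.1) in YY oocytes. In each of these the lowest AA oocyte was above the highest YY oocyte. Fbxw15 rose by 0.93 ± 0.12, Fbxw13 by 0.90 ± 0.10 and Fbxw24 by 0.55 ± 0.09 (adjusted p = 2.03e-06, 2.44e-08 and 3.2e-05, edgeR). Against S198 to S202 alone 11 of the 15 were called and the values ran from 0.03 to 0.68. Of 14 other genes tested within 500 kb of either end (median -0.03) none was called higher and 3 fell, Cdc25a (-0.90 ± 0.15), Map4 (-0.75 ± 0.12) and Smarcc1 (-1.18 ± 0.37). Uqcrc1 (0.70 ± 0.28, adjusted p = 0.0596, edgeR) and Atrip (0.51 ± 0.26), both with few counts, were not called. Of 5 tested Fbxw genes outside the cluster 1 rose (Fbxw17, 0.58 ± 0.20). The cluster is a family of related copies, and the sources used here do not give how reads that match more than 1 of them were counted, so the values of single Fbxw genes are uncertain. Of the 15 genes 14 were called in the fit with the pattern block. The Fbxw genes, their neighbours and the promoters were taken up after values were seen.

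**Figure D3:**
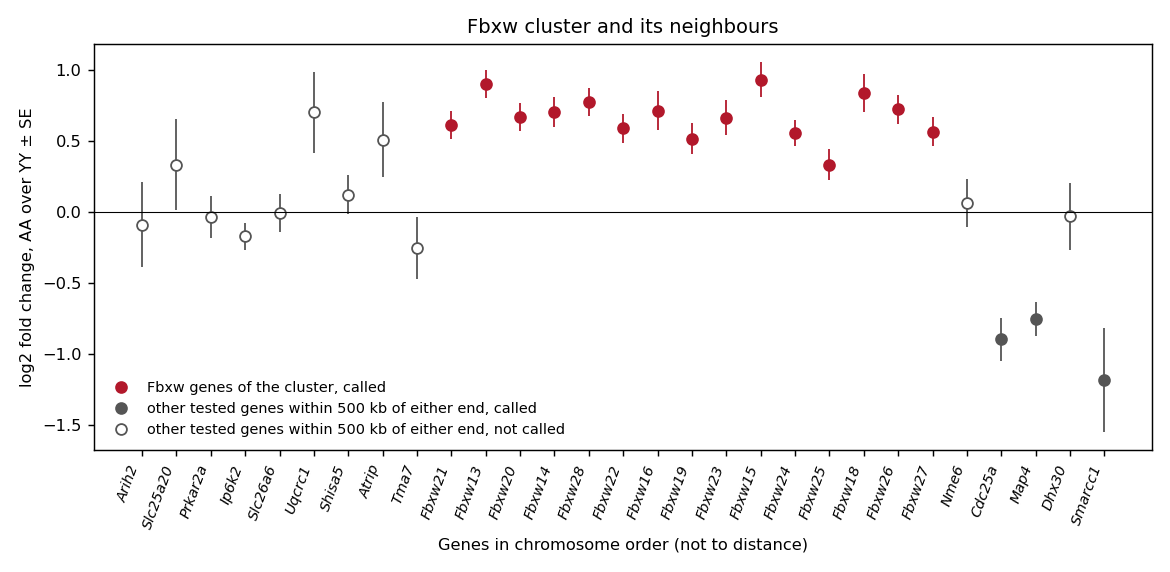
Log2 fold change of AA over YY, with its standard error, for the 15 Fbxw genes of the cluster on chromosome 9 (red) and the 14 other tested genes within 500 kb of either end (grey), in chromosome order and not to distance. Filled points were called and open points were not. All Fbxw genes lie between 0.33 and 0.93, while the neighbours scatter around 0 with 3 called lower.

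Other parts of the ligase system moved in both directions. Cul1, the scaffold that F-box proteins dock on, had 1077 to 1616 CPM (median 1219) in AA oocytes, against 527 to 964 CPM (median 758) in YY oocytes, without overlap, and rose by 0.66 ± 0.09, while Cul3 was at 8.9 to 32.8 CPM (median 19.2) in AA oocytes, against 22.4 to 79 CPM (median 39.8) in YY oocytes and changed by -1.35 ± 0.22 (adjusted p = 1.39e-05, edgeR). Of 9 tested subunits of the COP9 signalosome, which strips NEDD8 from cullins, 6 rose, while 2 were called against S198 to S202, 3 with the pattern block and 4 with the offset for GC content and length. Of the 6, Cops8 lost its call when any 1 of 17 libraries was left out and Gps1 when any 1 of 7 was. Cops3 and Cops4, which changed by 0.72 ± 0.11 and 0.51 ± 0.08 against all of YY, were called against S198 to S202. Cops3 was at 0.52 in that comparison. Among 28 ubiquitin-conjugating enzymes (median -0.09) 4 rose (14.3%) and 7 fell (25%), beside 12.8% and 14.7% of all genes. With the pattern as a random block 1 of these enzymes rose and none fell. Cdc34b, a copy of the conjugating enzyme that serves cullin ligases, measured 267.7 to 469 CPM (median 336) in AA oocytes, against 95 to 232 CPM (median 119) in YY oocytes, without overlap, and rose by 1.22 ± 0.16, whereas Ube2g1 changed by -0.30 ± 0.09 and Ube2k by -0.20 ± 0.06. Ubb, a polyubiquitin gene and one of the most abundant transcripts, was at 6184 to 8532 CPM (median 7746) in AA oocytes, against 4866 to 6185 CPM (median 5609) in YY oocytes and rose by 0.45 ± 0.06 (adjusted p = 1.1e-06, edgeR). Cdc34b has a near-identical relative, so its count is uncertain. Cul1, Cops3 and Cops4 were named after their values were seen.

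Chaperones changed in both directions. Of 48 tested genes 10 rose (20.8%) and 5 fell (10.4%), beside 12.8% and 14.7% of all genes, and the list median was 0.14. Of 7 tested subunits of the CCT chaperonin, a barrel in which proteins fold, 6 rose. Of these, Cct7 lost its call when any 1 of 7 libraries was left out and Cct2 when any 1 of 2 was. Cct8 had 395 to 518 CPM (median 465) in AA oocytes, against 172 to 357 CPM (median 279.7) in YY oocytes and did not overlap, and Tcp1 had 184 to 299 CPM (median 227) in AA oocytes, against 80.3 to 192 CPM (median 132) in YY oocytes, with the extremes meeting. They rose by 0.71 ± 0.10 and 0.78 ± 0.11 (adjusted p = 1.61e-06 and 2.59e-06, edgeR). Prefoldin, which hands unfolded actin and tubulin to CCT, had 3 of 6 tested subunits lower, Pfdn1 (-0.37 ± 0.11), Pfdn4 (-0.36 ± 0.09) and Pfdn6 (-0.45 ± 0.12), and none higher. Pfdn4 measured 856 to 1287 CPM (median 1019) in AA oocytes, against 974 to 1834 CPM (median 1413) in YY oocytes. When YY was limited to S198 to S202, Cct5 (0.32), Cct8 (0.45) and Tcp1 (0.52) were called and no prefoldin gene was. In the fit with the pattern block 4 CCT genes and no prefoldin gene were called. With the offset for GC content and length 4 CCT genes and 4 prefoldin genes were called. Both complexes were taken as groups after their values were seen.

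Autophagy and lysosome genes had 7 of 37 tested members higher (18.9%) and 5 lower (13.5%), with a list median of 0.10. Those shares were near the 12.8% higher and 14.7% lower of all genes. Tfe3, a transcription factor of lysosome genes, was at 32.9 to 71.2 CPM (median 46.5) in AA oocytes, against 53.9 to 107 CPM (median 84.2) in YY oocytes and changed by -0.81 ± 0.13, and it stayed at -0.83 against S198 to S202. Optn, a receptor for the removal of damaged mitochondria, rose by 0.65 ± 0.14 and Pik3c3, the lipid kinase that starts autophagosomes, by 0.92 ± 0.21. Pik3c3 was at 0.46 against S198 to S202 and was not called there (adjusted p = 0.24, edgeR).

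**Figure D4:**
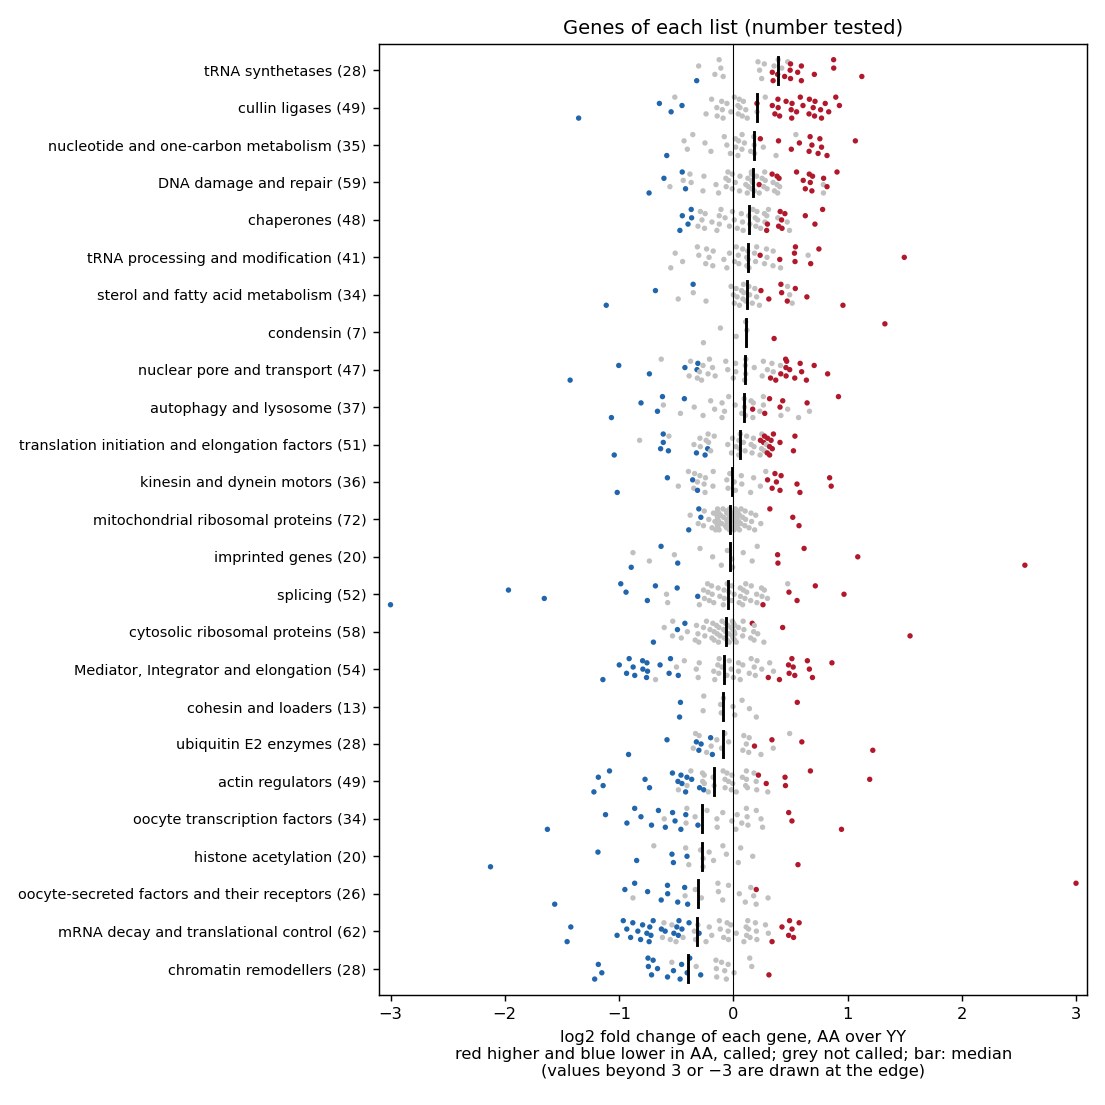
Log2 fold change of AA over YY for each tested gene of the 25 lists, with the number tested in brackets and the lists ordered by their median (black bar). Red points were called higher in AA, blue points lower and grey points were not called. tRNA synthetases stand highest with a median of 0.39 and chromatin remodellers lowest with -0.39, and most lists hold genes in both directions.

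Regulators of actin, the network that moves the oocyte's spindle to the cortex, had 15 of 49 tested genes lower and 6 higher (median -0.17). These were 30.6% and 12.2%, beside 14.7% lower and 12.8% higher of all genes. With the pattern as a random block 5 of the list were lower and 4 higher. Tiam1, an activator of the GTPase Rac, measured 30.4 to 74.8 CPM (median 47) in AA oocytes, against 75.7 to 159.9 CPM (median 109) in YY oocytes, and Wasf2, a Rac effector that switches on branched actin, measured 55.9 to 91 CPM (median 70.1) in AA oocytes, against 106 to 228.4 CPM (median 145) in YY oocytes. Neither overlapped. They changed by -1.18 ± 0.14 and -1.08 ± 0.13 (adjusted p = 7.62e-08 and 2.22e-07, edgeR). Abi1, which binds Wasf proteins in the same complex, changed by -0.48 ± 0.12. Capza1, a cap of the fast-growing filament end, was at 58.7 to 113 CPM (median 91.1) in AA oocytes, against 17 to 81.4 CPM (median 29.4) in YY oocytes and rose by 1.19 ± 0.19, and Spire1, which seeds unbranched filaments, rose by 0.45 ± 0.12. With YY limited to S198 to S202, Tiam1 and Wasf2 were lower and Capza1 and Diaph3 higher. Srf, the transcription factor of actin genes, was at 1.64 to 12.6 CPM (median 5.38) in AA oocytes, against 5.34 to 55.1 CPM (median 20.5) in YY oocytes and changed by -2.04 ± 0.38 against all of YY and by -1.22 against S198 to S202 (adjusted p = 0.0837, edgeR). Abi1 and Spire1 were named after their values were seen.

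Motor proteins of the microtubule had 10 of 36 tested genes higher (27.8%) and 4 lower (11.1%), beside 12.8% and 14.7% of all genes. Their median was -0.01. Kinesins of the spindle rose in several cases: Kif11, the bipolar motor of the spindle, by 0.42 ± 0.14, Kif18a, which limits chromosome movement, by 0.58 ± 0.16, and Kif20a and Kif20b, motors of cytokinesis, by 0.86 ± 0.20 and 0.38 ± 0.09. Dync1i2, an intermediate chain of dynein, was at 453 to 624 CPM (median 546) in AA oocytes, against 161.7 to 599.9 CPM (median 268.4) in YY oocytes and rose by 0.84 ± 0.17. Kif13a (-1.02 ± 0.33) and Kif14 (-0.36 ± 0.11) fell. Relative to S198 to S202 no motor gene was higher and 3 were lower, Kif13a, Kif14 and Kif24, and Dync1i2 was at 0.38 (adjusted p = 0.0517, edgeR). With the pattern as a random block 8 motor genes were higher and 0 lower. Against all of YY, Kif24 lost its call when any 1 of 7 libraries was left out. Kif11, Kif18a and Kif20a were named after their values were seen.

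Of 47 tested genes of the nuclear pore and of nuclear transport 14 rose (29.8%) and 6 fell (12.8%), with a median of 0.11. Of all genes 12.8% rose and 14.7% fell. Kpna7, the importin alpha of oocytes and early embryos, was at 564 to 751 CPM (median 705) in AA oocytes, against 357 to 605 CPM (median 528) in YY oocytes, overlapping at the edges, and rose by 0.46 ± 0.08. The scaffold nucleoporins Nup93, Nup107 and Nup160 rose by 0.64 ± 0.13, 0.42 ± 0.13 and 0.71 ± 0.18. Pom121, which anchors the pore in the membrane, was at 5.51 to 26.8 CPM (median 15.3) in AA oocytes, against 21.3 to 72.8 CPM (median 29.2) in YY oocytes and changed by -1.43 ± 0.23, and the import receptor Tnpo1 changed by -0.73 ± 0.13. Nup93, Nup107 and Nup160 were named after their values were seen. Against S198 to S202, 1 gene of the list was higher (Nup188) and 3 were lower (Pom121, Tnpo1 and Ranbp3), and Kpna7 was at 0.25 (adjusted p = 0.0508, edgeR).

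In metabolism, genes of nucleotide and one-carbon metabolism had 12 of 35 tested members higher (34.3%) and 1 lower (2.86%), with a median of 0.18. Of all genes 12.8% rose and 14.7% fell. Gmps, which makes GMP, measured 309 to 473 CPM (median 388) in AA oocytes, against 147 to 338 CPM (median 246) in YY oocytes and rose by 0.66 ± 0.10 (adjusted p = 7.87e-06, edgeR), and Tcn2, the transporter of vitamin B12, had 35.6 to 74 CPM (median 53.2) in AA oocytes, against 12.8 to 40.3 CPM (median 26.4) in YY oocytes and rose by 1.07 ± 0.17. The edges of the groups overlapped in both. Mthfd1, which interconverts folates in the cytosol, changed by -0.58 ± 0.16, while its mitochondrial relative Mthfd1l, named after its values were seen, rose by 0.77 ± 0.25. Relative to S198 to S202, Gmps, Tcn2 and Adss were higher. Of 34 tested genes of sterol and fatty acid metabolism 8 rose (23.5%) and 3 fell (8.82%), with a median of 0.12. Elovl7, which lengthens fatty acids, rose by 0.96 ± 0.16. Hmgcs1, an early enzyme of cholesterol synthesis, changed by -0.35 ± 0.10, and by -0.04 against S225 to S231 and -0.66 against S198 to S202. Scap, the sterol sensor, changed by -0.68 ± 0.19 but was at 0.07 against S198 to S202, on the other side of 0. Ldhb, the lactate dehydrogenase subunit of oocytes, was the most abundant gene among those without overlap, with 7329 to 10197 CPM (median 8755) in AA oocytes, against 4239 to 7169 CPM (median 5769.6) in YY oocytes, and rose by 0.63 ± 0.09.

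**Figure D5:**
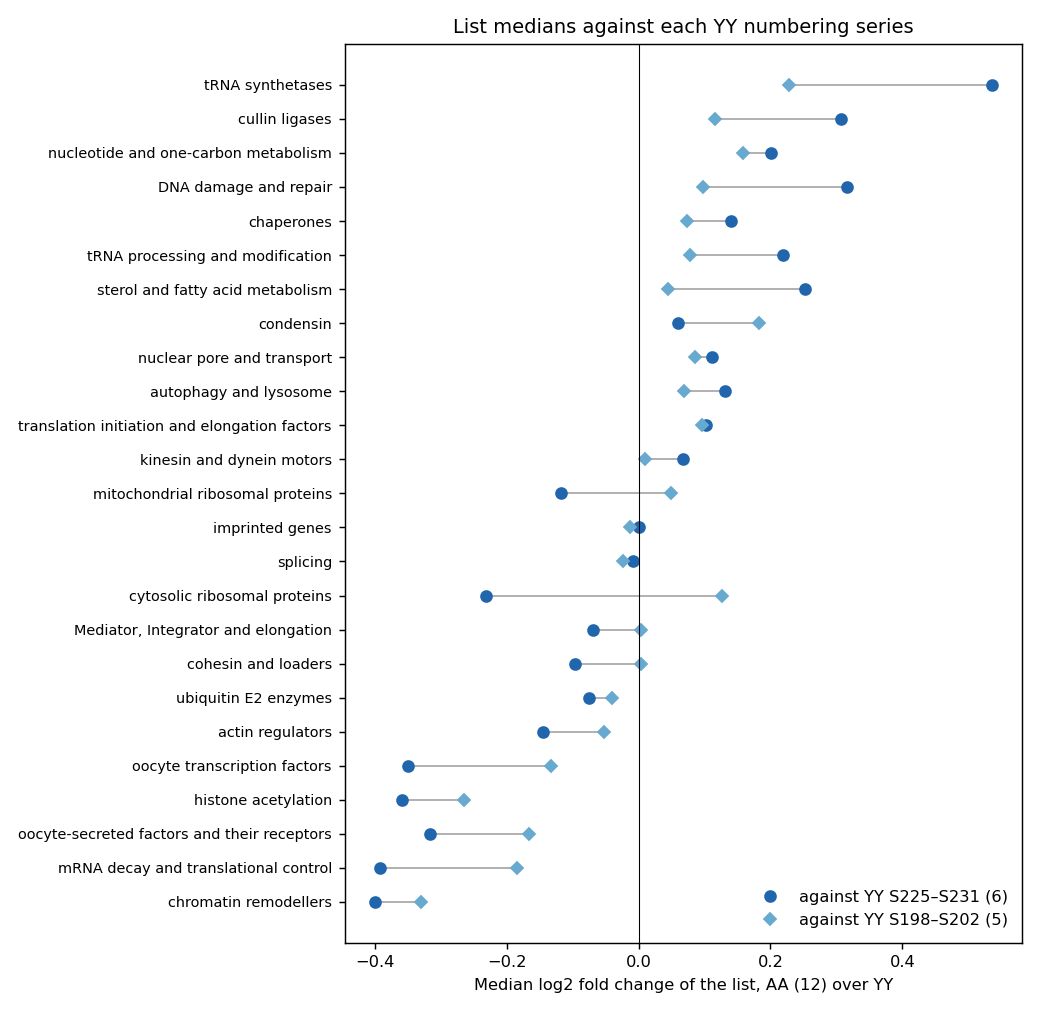
Median log2 fold change of each list, AA (12 libraries) over YY, against YY S225 to S231 (circles, 6 libraries) and against YY S198 to S202 (diamonds, 5 libraries). The lists are in the order of their median against all of YY. In most lists the value against S225 to S231 lies farther from 0, and for cytosolic and mitochondrial ribosomal proteins the values lie on opposite sides of 0. So do those, against S225 to S231 and then S198 to S202, of cohesin and loaders (-0.10, 0.004) and of imprinted genes (0.001, -0.01). The same holds for Mediator, Integrator and elongation (-0.07, 0.003).

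Secreted factors and receptors through which the oocyte and its somatic cells signal had 10 of 26 tested genes lower and 2 higher (median -0.31). These were 38.5% and 7.69% of the list, beside 14.7% lower and 12.8% higher of all genes. Jag1, a Notch ligand, was at 299 to 468 CPM (median 349) in AA oocytes, against 415 to 991 CPM (median 548) in YY oocytes and changed by -0.75 ± 0.12. Gpr3, the receptor that keeps the oocyte in meiotic arrest, was at 10.9 to 38.9 CPM (median 23) in AA oocytes, against 26.5 to 71 CPM (median 42.5) in YY oocytes and changed by -0.95 ± 0.21, and Pde3a, which breaks down the same cyclic AMP, changed by -0.58 ± 0.14. Receptors and transducers of BMP and activin signals included both directions. Lower were Acvr1b (-1.56 ± 0.35), Bmpr1a (-0.63 ± 0.20) and Smad4 (-0.57 ± 0.18), while Bmpr1b was higher by 0.20 ± 0.08 (adjusted p = 0.0492, edgeR) and lost its call when any 1 of 21 libraries was left out. With the pattern as a random block 2 of the 26 were lower and 1 higher, and Acvr1b, Bmpr1a, Smad4 and Bmpr1b were not called. In the S198 to S202 comparison Jag1 (-0.38) was the 1 gene of these that was called lower. Pde3a, Acvr1b, Bmpr1a and Smad4 were named after their values were seen. The ligands Gdf9 and Bmp15 were not called.

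Some transcripts known from granulosa cells were higher in AA. Of the 15 granulosa and cumulus markers 4 were tested and 3 of these were called higher, but none against S198 to S202 and none with the pattern as a random block. Gja1, connexin 43, the gap junction protein that joins granulosa cells, was at 7.67 to 118 CPM (median 19.5) in AA oocytes, against 0 to 8.13 CPM (median 1.87) in YY oocytes. A single YY oocyte reached the bottom of the AA range, and the change was 3.49 ± 0.59 (adjusted p = 6.89e-05, edgeR). Inha, the inhibin alpha subunit, was at 7.91 to 129.4 CPM (median 39.2) in AA oocytes, against 0 to 24.4 CPM (median 4.67) in YY oocytes and rose by 2.78 ± 0.49, and Inhba rose by 1.99 ± 0.47. Ccl2, a chemokine, was at 6.89 to 93.1 CPM (median 43.2) in AA oocytes, against 0 to 37.4 CPM (median 3.3) in YY oocytes and rose by 2.96 ± 0.56, and AY oocytes (SD, n = 6) held 4.7 ± 5.11 CPM of Ccl2, 16.8 ± 14.6 CPM of Gja1 and 43.7 ± 31.3 CPM of Inha. Against S198 to S202, Gja1 (3.26) and Ccl2 (3.61) kept their call and Inha did not (2.29, adjusted p = 0.0543, edgeR). Under the pattern block Gja1 was called and Ccl2 was not (adjusted p = 0.056, limma voom).

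The summed level of the 15 granulosa and cumulus markers was 628 to 1162 CPM (median 1001) in AA, against 487 to 785 CPM (median 688) in YY (unscaled CPM), with a two-sided permutation p of 0.00018 and an adjusted p of 9e-04 over 5 marker lists. In AY oocytes the sum was 794 to 1373 CPM (median 1276). Most of that sum was Serpine2, at a median of 909 CPM in AA and 657 CPM in YY, which oocytes of every group of the series held. Among the other markers, Amh and Ptx3 were at 0 in all AA and all YY libraries. Foxl2 was at 0 in 11 of 12 AA and all 11 YY libraries and Nr5a1 in all 12 AA and 10 YY libraries. Hsd17b1 was at 2.55 to 15.9 CPM in AA, while it was at 0 in 7 YY libraries and reached 2.98 CPM in YY. Fshr was at 0 in 4 AA and 8 YY libraries, Inhbb in 4 AA and 7 YY and Fst in 6 AA and 9 YY. Theca and stroma markers summed to 0 to 9.74 CPM (median 3.42) in AA, against 0 to 7.14 CPM (median 1.51) in YY (permutation p = 0.0837) and immune markers to 0 to 8.98 CPM (median 3.79) in AA, against 0 to 5.57 CPM (median 2.45) in YY (permutation p = 0.526). Endothelium and blood markers summed to 58 to 131 CPM (median 77.4) in AA, against 36.2 to 99.98 CPM (median 64.2) in YY (permutation p = 0.125), and the 12 oocyte markers to 17504 to 25120.2 CPM (median 19532) in AA, against 17079 to 22996 CPM (median 19455) in YY (permutation p = 0.259). In a library made from 1 oocyte, RNA of the oocyte and RNA of somatic cells that adhere to it cannot be told apart, and the part of adhering cells in these values was not tested.

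Imprinted genes had 5 of 20 tested members higher (25%) and 3 lower (15%), beside 12.8% and 14.7% of all genes, and a list median of -0.03. Nap1l5, a paternally expressed gene, was at 7.66 to 36.6 CPM (median 21.4) in AA oocytes, against 0 to 10.4 CPM (median 2.41) in YY oocytes. Overlap was limited to the lowest AA and highest YY oocytes, and the rise was 2.55 ± 0.37 (adjusted p = 2.08e-06, edgeR) and 1.96 against S198 to S202. Mest rose by 0.39 ± 0.12 against all of YY but was at 0.02 against S198 to S202 (adjusted p = 0.943, edgeR).

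The largest changes were decreases. Tmem14c, an inner membrane protein of mitochondria that serves heme synthesis, was at 0 to 7.81 CPM (median 3.25) in AA oocytes, against 2.09 to 387 CPM (median 307) in YY oocytes and changed by -5.82 ± 1.10 (adjusted p = 0.000302, edgeR). Its level split YY by series, with 307 to 387 CPM in S225 to S231 and 2.09 to 10.2 CPM in S198 to S202, so AA stood apart from only 1 series. Tmem14c is another gene that defines the patterns and was named after its values were seen. Batf3, a leucine zipper transcription factor, had 0 to 6.88 CPM (median 1.27) in AA oocytes, against 11.2 to 61.8 CPM (median 25.3) in YY oocytes, and no AA oocyte reached the lowest YY oocyte. It changed by -4.00 ± 0.58 (adjusted p = 1.14e-05, edgeR), and stood at 29.8 ± 23 CPM in AY (SD, n = 6). Gm17830, which is annotated as a long non-coding RNA on chromosome 17 (49611507 to 49619988, mm39) that was picked after its values were seen, had 1.41 to 7.81 CPM (median 4.87) in AA oocytes, against 106 to 282 CPM (median 214) in YY oocytes and changed by -5.40 ± 0.20. Rhbdf1, a rhomboid-like protein, was at 0 to 78.1 CPM (median 0.631) in AA oocytes, against 58.3 to 205 CPM (median 108) in YY oocytes, with 9 of 12 AA oocytes near 0 and the highest AA oocyte inside the YY range, and changed by -2.80 ± 0.56. Fam222a (-2.29 ± 0.31), Hnrnpul1 (-2.24 ± 0.36), Tsc22d4 (-1.93 ± 0.24) and Ttyh3 (-1.95 ± 0.28) fell as well, each with all 12 AA oocytes below the YY median and each called against both series. Gm17830 and Rhbdf1 are among the 11 genes that define the all-or-nothing patterns. Among increases, Zfp473, a zinc finger protein, was at 6.25 to 74 CPM (median 41.3) in AA oocytes, against 5.5 to 21.7 CPM (median 13.1) in YY oocytes, with all but 1 AA oocyte above the YY median, and rose by 1.71 ± 0.27. Anxa5 had 2.53 to 236 CPM (median 195) in AA oocytes, against 6.6 to 169 CPM (median 29.4) in YY oocytes and lay high in some AA oocytes and near 0 in others, and its rise of 1.79 ± 0.56 lost its call with the pattern as a random block (adjusted p = 0.571, limma voom). Pramel34, of the oocyte-expressed PRAME family, was at 2136 to 3179 CPM (median 2418) in AA oocytes, against 545 to 2051 CPM (median 859.8) in YY oocytes without overlap and rose by 1.25 ± 0.24, although it belongs to a family of similar copies and its counts are uncertain.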

How the data were processed

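RNA of single oocytes was sequenced, each oocyte lysed on its own and amplified with the NEBNext Single Cell/Low Input kit (16 PCR cycles for cDNA and 8 for the library), per the labels' protocols. The authors deposited 1 table of read counts, whole numbers without normalization, for 55357 gene identifiers. The build mm39, HTSeq 0.11.0 and STAR 2.7.8a are listed per the submitters' processing notes. The sources used here do not give whether counting used strand or how reads shared by near-identical genes were assigned. The text gives mm39 coordinates from that table. Its stop column lies 1 base past the end of nearly all genes when set beside GENCODE M21 lengths, and 1 was subtracted. The library number in each title linked a column to its sample, and groups were taken from the labels.

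AA, AY and YY shared 1 fit in edgeR 4.0.16 (R 4.3.3), which scaled by TMM, kept genes by filterByExpr (minimum count 10 and minimum total 15, by group), fitted a robust quasi-likelihood model and adjusted by Benjamini-Hochberg. A gene was called at an adjusted p under 0.05. Standard errors come from the F statistic. CPM of single libraries are TMM-scaled unless named as unscaled. Marker sums were compared with a two-sided permutation test of 100000 resamples in SciPy 1.17.1. Total counts were 503354 to 1335807 in AA and 462476 to 1023332 in YY. On simulated counts with known changes over 8276 genes for AA against YY, the fit recovered 41.1% of 1.5-fold, 75.8% of 2-fold and 100% of 4-fold changes, with 10 false calls. The simulated libraries were drawn independently, without numbering series or patterns. These rates therefore do not give the recovery or the false calls in the real libraries, where such structure is present. With no molecular identifiers, a count measures amplified cDNA. Chi-square per degree of freedom between libraries of 1 group was at least 2.08 in AA and 2.73 in YY, so none was treated as deposited more than once.

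Genes were named by a rule. It took the 12 genes in each direction with the largest log2 change among called genes with a mean of at least 10 CPM in the higher group and 5 counts in at least 0.75 of its libraries as a share. It added the 8 in each direction with the largest difference in mean CPM, and up to 2 called genes in each direction from each of 25 lists. Predicted genes and clone names were not eligible. The members, the lists and the rule were chosen with earlier results of these data known. Alternatives were RLE size factors, DESeq2 1.42.0, no filter or a stricter one on low counts, voom with quality weights (limma 3.58.1), AA and YY alone, the replicate number as a block, genes detected per library as a covariate, either YY series alone, the all-or-nothing pattern as a random block or summed, an offset for transcript GC content and length, and leaving out each library in turn. Promoter sequences are from RefSeq (build GRCm38.p6) and were not placed on mm39. Results for some genes are not reported here.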

Additional observations from a re-analysis of the deposited data

Results flagged for a closer look

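Of 16 measures of library quality and marker content checked within groups of 4 to 10 samples, 1 held a library far from the others. In YY S225 to S231 the share of counts taken by the 50 most abundant genes was 16.2% in the lowest library, while the nearest other stood at 17.5%. The gap was 0.84 of the whole range of the 6 libraries (critical value 0.625), and chance alone sets off this rule in about 1 in 20 groups.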

How the results depend on the processing

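The totals of 2348 called, 1090 higher and 1258 lower genes stayed within 1.5 times of these values under RLE size factors, DESeq2, both other filters, AA and YY alone, the covariate, voom with quality weights, the GC and length offset and YY S225 to S231 alone. Against YY S198 to S202 alone they were 451, 189 and 262, with 68 lower genes of at least 2-fold. With the pattern as a random block they were 1081, 579 and 502, with 178 lower genes of at least 2-fold. With the libraries of each pattern summed they were 2, 1 and 1, and both called genes (1 higher, 1 lower) changed at least 2-fold. Higher genes of at least 2-fold numbered 96 in voom with quality weights, 255 without a filter on low counts and 280 against S225 to S231, beside 63. Lower ones numbered 501 without a filter, 168 with AA and YY alone and 516 against S225 to S231, beside 286. Leaving out each library in turn gave 1961 to 2514 called genes, 912 to 1189 higher, 1049 to 1325 lower, 54 to 82 higher and 209 to 337 lower by at least 2-fold. In these fits 575 of the 2348 genes lost their call at least once and none changed sign. Between the YY series, leaving out each library gave 572 to 1087 called genes, 237 to 501 higher and 335 to 591 lower. Of the 124 named genes, 58 lost their call and Scap changed sign (to 0.0686) against S198 to S202 alone. With the pattern as a random block 35 lost their call, 11 with the GC and length offset, and 123 in the fit on sums by pattern. The difference in the oocyte marker sum was 2202 CPM on the TMM scale and passed the test there (adjusted p = 0.0308), against 949.0 CPM unscaled. The cause of these shifts was not tested. AA and YY share replicate numbers, but same-numbered libraries did not deviate together (correlations from -0.09 to 0.21, 2 of 11 over 0.1, and 2 AA libraries closest to their own number). The fit with the replicate number as a block called 1908 genes, 875 higher and 1033 lower, with 159 lower by at least 2-fold. At this depth the fit recovered 41.1% of simulated 1.5-fold changes, so a gene that was not called is not shown to be alike.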

Other observations

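Levels of the leading genes in the other groups place AA and YY beside the young control oocytes, which were sequenced with or without culture. These groups carry their own library numbers, so no test is given. Mean Ncapg was 702 ± 64.4 CPM in AA oocytes and 281 ± 80.3 CPM in YY oocytes, beside 492 ± 122 CPM in uncultured and 386 ± 109.6 CPM in cultured young oocytes (SD, n = 12, 11, 8 and 8). Dazl, which was lower in AA at 491 ± 74.6 CPM, against 859 ± 94.3 CPM in YY, stood at 609.7 ± 104 CPM in uncultured and 705 ± 128.05 CPM in cultured young oocytes. Thg1l averaged 61.9 ± 14.9 CPM in AA oocytes and 22.5 ± 6.5 CPM in YY oocytes, with 22.2 ± 14.8 and 27.3 ± 18.9 CPM in the uncultured and cultured young oocytes. Nfya averaged 679.5 ± 114 CPM in AA oocytes and 352 ± 98 CPM in YY oocytes, with 543 ± 155 and 428 ± 135 CPM in those controls. The summed Fbxw cluster of AA had a median of 27932 CPM, that of YY 16256 CPM and that of uncultured young oocytes 26643 CPM.

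Of the 12 oocyte markers, Zp1 (0.50 ± 0.10), Zp2 (0.56 ± 0.09), both zona pellucida glycoproteins, and Dppa3 (0.22 ± 0.08), a maternal protein that guards methylation in the zygote, rose in AA on the log2 scale (edgeR, called at an adjusted p under 0.05), and none fell. Zp2 measured 928 to 1543 CPM (median 1154) in AA oocytes, against 596 to 1106 CPM (median 786) in YY oocytes. In unscaled CPM, Zp2 had medians of 1738 in uncultured and 1590 in cultured young oocytes, beside 1116 in AA and 793 in YY. Zp1 had unscaled medians of 1661 and 1407 in those controls, beside 1268 in AA and 938 in YY. Both genes were thus higher in the young controls than in AA. Against S198 to S202 Zp2 (0.43) was the 1 marker called. Against S225 to S231, 6 markers were higher and 1 lower, and with the offset for GC content and length 3 were higher and 1 lower. Dppa3 lost its call when any 1 of 10 libraries was left out (adjusted p up to 0.0691, edgeR) and with the offset for GC content and length (adjusted p = 0.652, edgeR).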
